A study of Mus musculus with 8 samples.

Results

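Splicing factors and the kinases that phosphorylate them were followed in TTE3, a mouse Sertoli cell line, during exposure to bisphenol A (BPA). Members were taken by gene symbol, from symbols proposed with earlier results of these data known. They are all probe sets annotated with exactly 1 symbol that begins with Srsf, Tra2, Hnrnp, Snrp, Sf3a, Sf3b or Luc7l, and those of Clk1, Clk2, Clk3, Clk4, Srpk1 and Srpk2. They were 138 probe sets of 55 genes, out of 22690 probe sets on the array. By protein family they were 31 probe sets of 11 SR and SR-like proteins, 50 of 18 hnRNP proteins, 15 of 8 Sm and U snRNP proteins, 22 of 9 SF3 proteins, 10 of 3 LUC7-like proteins and 10 of the 6 kinases.

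All 8 samples are of this 1 line. It came from the testis of transgenic mice that carry the simian virus 40 large T antigen in a temperature-sensitive form. All groups carried the same genotype and the same 0.2 mM BPA treatment, and differed in its length: 0, 3, 6 or 12 h, with 2 Affymetrix Mouse Expression 430A arrays at each time. BPA is an industrial monomer of polycarbonate plastic with weak oestrogenic activity. No array of cells kept without BPA for 3, 6 or 12 h was among the samples, so BPA and time in culture cannot be told apart. Nothing in the labels ties the 2 arrays of a time to separate cultures. The p-values then cover only the spread between arrays, and this spread may be technical. With 2 arrays a time, precision is limited. In RNA from a whole culture, fewer cells that express a gene and less RNA of it per cell cannot be told apart.

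The 8 arrays were on one scale, with a trimmed mean signal between 500.16 and 500.18. The 3' to 5' signal ratio was between 0.713 and 0.82 for the Gapdh control and between 1.11 and 1.19 for the actin control. Of 15 Sertoli cell markers on the array, 7 had a mean signal above the array median (Clu, Gata4, Inhbb, Kitl, Krt18, Nr5a1 and Wt1), while Sox9, Amh and Fshr, which define the type, were below it. The summed signal of the 15 was 12300 to 12800 at 0 h and 8500 to 9410 at 12 h. Clu alone went from a mean of 7650 to 3409, and Inhbb also fell (-0.99 ± 0.18). Sox9 and Gata4 rose, by 1.55 ± 0.36 and 0.50 ± 0.15 (limma adjusted p = 0.006 and 0.0217 at 12 h). The fall of Clu was thus larger than that of the sum. None of 8 germ cell markers, 1 of 4 Leydig cell markers (Star), 2 of 7 peritubular and fibroblast markers (Col1a1 and Dcn) and 1 of 5 macrophage markers (Cd68) were above the median. The summed peritubular and fibroblast signal went from 9660 to 9750 at 0 h to 4470 to 5310 at 12 h, most of it Dcn (means of 8432 and 4290). The part of these shifts in the results below was not tested.

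SR proteins bind exonic enhancers in pre-mRNA through RNA recognition motifs and recruit the splicing machinery through domains rich in arginine and serine. The hnRNP proteins coat nascent transcripts and often act against SR proteins at the same exons. The Sm proteins form the ring shared by the U1, U2, U4 and U5 snRNPs, SF3A and SF3B are parts of the U2 snRNP that hold the branch point, and the LUC7-like proteins belong to the U1 snRNP and help it to recognise the 5' splice site. CLK and SRPK kinases phosphorylate the arginine and serine domains, SRPK mainly in the cytoplasm and CLK in the nucleus. Many SR, TRA2 and hnRNP genes, and the CLK genes, make alternative transcripts of their own through cassette exons or retained introns, and some of these are degraded by nonsense-mediated decay.

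The windows before the members' start sites were searched for response elements, and those of the genes that hold the cAMP response element are shown as sequence. RefSeq windows of assembly GRCm38.p6 were at hand for 48 of the 55 genes, 66 windows in all, and the 250 bases before each start were searched on both strands. The CRE, the full-length cAMP response element TGACGTCA to which CREB and ATF proteins bind, was found in 3 member genes: Clk4, Tra2a and Snrpg. It is in capitals in the first 3 of the windows below, and ends 57, 19 and 41 bases before the start. Clk4 and Tra2a had called rises and Snrpg had no called change. Tra2b, the relative of Tra2a, is shown beside them as a window without the full element. Other members with larger rises than Tra2a, such as Srsf3 and Hnrnpdl, had no full element in their windows and are not shown. The genes without a window, which could not be searched, were Clk1, Hnrnpll, Hnrnpul2, Luc7l, Sf3b4, Sf3b5 and Snrpb. The windows are chr11:51262864-51263113, plus strand for Clk4, chr6:49264053-49264302, minus strand for Tra2a, chr6:86371290-86371539, plus strand for Snrpg and chr16:22266006-22266255, minus strand for Tra2b.
Clk4: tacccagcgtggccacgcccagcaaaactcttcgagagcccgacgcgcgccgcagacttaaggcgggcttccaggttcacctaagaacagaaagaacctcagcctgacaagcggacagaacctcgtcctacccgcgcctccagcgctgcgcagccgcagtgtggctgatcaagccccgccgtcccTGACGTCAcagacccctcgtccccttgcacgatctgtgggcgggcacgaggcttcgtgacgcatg
Tra2a: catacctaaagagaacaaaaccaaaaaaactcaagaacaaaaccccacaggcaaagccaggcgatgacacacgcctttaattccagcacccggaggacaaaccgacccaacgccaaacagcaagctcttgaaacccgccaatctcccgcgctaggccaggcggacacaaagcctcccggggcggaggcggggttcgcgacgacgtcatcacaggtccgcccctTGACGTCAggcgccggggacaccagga
Snrpg: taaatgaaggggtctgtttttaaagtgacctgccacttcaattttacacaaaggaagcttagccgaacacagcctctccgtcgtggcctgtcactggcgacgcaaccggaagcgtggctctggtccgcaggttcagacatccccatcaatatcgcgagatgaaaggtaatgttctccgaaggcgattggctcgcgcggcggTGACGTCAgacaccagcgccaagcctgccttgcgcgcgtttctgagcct
Tra2b: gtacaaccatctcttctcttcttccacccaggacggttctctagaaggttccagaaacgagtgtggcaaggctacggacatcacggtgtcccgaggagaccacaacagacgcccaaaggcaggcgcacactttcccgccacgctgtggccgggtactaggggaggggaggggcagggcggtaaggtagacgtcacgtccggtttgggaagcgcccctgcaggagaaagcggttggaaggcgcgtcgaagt

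The 3 member windows with the CRE were 4.55% of the 66, against 1.55% of all 32851 windows of the table and 1.92% of the 21262 windows of protein-coding genes. The other motifs searched were the GC box GGGCGG, the ETS motif CCGGAAG, the CCAAT box CCAAT, the TATA box TATAAA, the E-box CACGTG, the AP-1 site TGANTCA and the amino acid response element (CARE) TGATGNAA, none of which holds the letters of another. The GC box was in 66.7% of the member windows and in 42.6% of protein-coding windows, and the ETS motif was in 28.8% and 8.98%. The CCAAT box was in 42.4% and 35.4%, the TATA box in 7.58% and 11.6%, the E-box in 4.55% and 6.63%, the AP-1 site in 3.03% and 6.13% and the CARE in 3.03% and 3.18%. The ETS motif was in 10 of 31 windows of genes with called rises alone, in 4 of 11 of genes with called falls alone, in 1 of 8 of genes called both ways and in 4 of 16 of genes without a call. These are matches of letters and were not tested as binding sites.

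Of the 138 probe sets, 133 passed the filter on dim signals and were tested; 1 probe set each of Hnrnpa1, Snrpb2, Snrpn, Sf3b5 and Sf3b6 did not, and Snrpn has no other. Changes are differences of log2(signal + 7.9) from the 0 h mean with the standard error (SE) from a limma model over all 8 arrays, and a change was called at a Benjamini-Hochberg adjusted p under 0.05 over all 15838 probe sets tested. At 3 h 23 members were called (17.3%), where 8.78% of all probe sets were. At 6 h 46 were called (34.6%, background 21.8%), and at 12 h 62 (46.6%, background 33.4%). Members were bright, 114 of the 133 being above the median mean signal, and among all probe sets above that median 12.5%, 30% and 43.8% were called at 3, 6 and 12 h. Set against bright probe sets, the share of members called was higher by less at 3 and 6 h and near the background at 12 h. Fewer members were called at 3 h without any 1 of the 0 h or 3 h arrays. Fewer were called at 6 h without either 0 h array, and at 12 h without either 0 h array or either 12 h array. In each of these fits, which left 1 array at 1 of the times, fewer of all probe sets were called as well. Of the single calls, 9 of 23 at 3 h, 17 of 46 at 6 h and 35 of 62 at 12 h held whichever 1 of the 8 arrays was left out. Many probe sets named below were chosen for treated arrays beyond both 0 h arrays, so that separation is no added evidence. It was also common. Both 12 h arrays were above both 0 h arrays in 5641 of all 15838 probe sets and below them in 5085, and in 59 and 42 of the 133 members.

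The direction of the calls was mixed. At 3 h 15 members rose and 8 fell, where 5.91% and 2.87% of all probe sets did. At 6 h 28 rose and 18 fell (background 13% and 8.84%), and at 12 h 40 rose and 22 fell (background 17% and 16.4%). Scaling the arrays to the same median, which moved the median change of all probe sets from 0.04 to -0.09 at 3 h and from 0.04 to -0.07 at 6 h, turned these splits to 13 against 15 and 19 against 23, and left 40 against 22 at 12 h. The median change of the 133 members was -0.01, 0.02 and 0.07 at 3, 6 and 12 h, near that of all probe sets tested (0.04, 0.04 and 0.03).

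**Figure D1:**
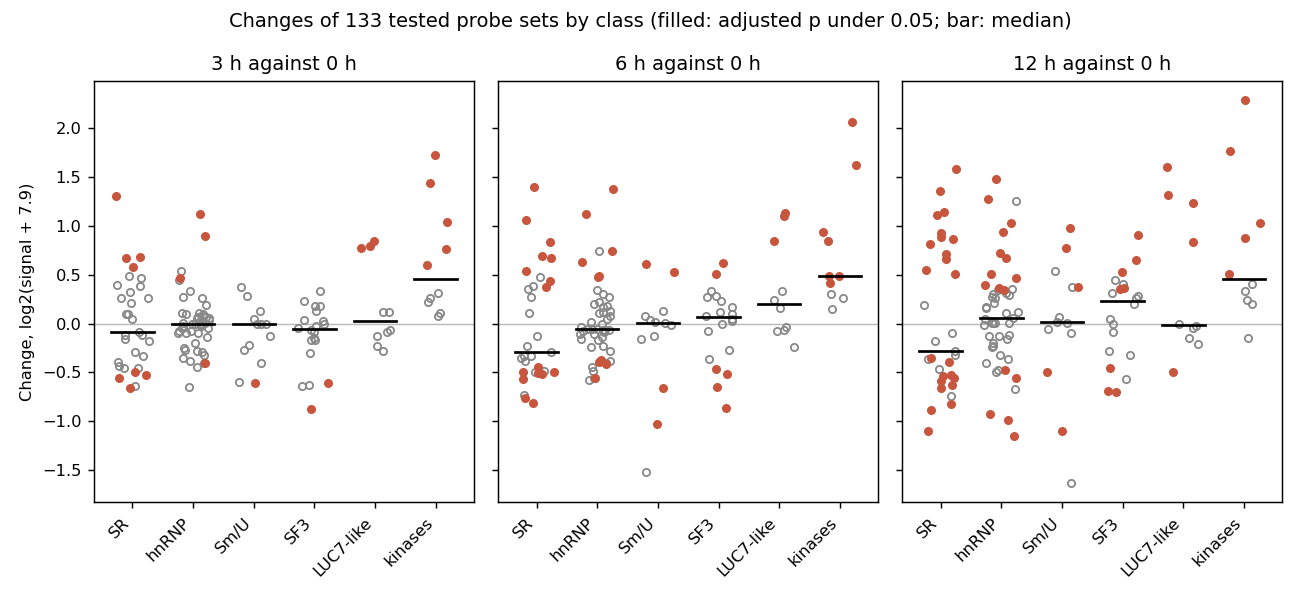
Change against 0 h, in log2(signal + 7.9), of each of the 133 tested probe sets (points) in 6 protein classes at 3, 6 and 12 h; filled points are called at an adjusted p under 0.05 and bars are class medians. The kinases lie mostly above 0 at all 3 times, while SR proteins spread to both sides, with 12 called rises and 11 called falls at 12 h.

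The kinases had called rises and no called fall. At 3 h 5 of their 10 probe sets rose, at 6 h 7 and at 12 h 5, and none fell. The shares called were 50%, 70% and 50%. Of bright probe sets 12.5%, 30% and 43.8% were called in either direction, so that at 12 h the share was near that background. All kinase calls were rises, where 5.91%, 13% and 17% of all probe sets rose at 3, 6 and 12 h. The median change of the kinases was 0.46, 0.49 and 0.46. The CLK family carried this, with all 5 of its probe sets called at 3 and at 6 h. The highest change among all members was that of Clk4, a nuclear kinase that phosphorylates SR proteins. On probe set 1422886_a_at its signal was 298 and 235 at 0 h, 858 and 928 at 3 h, 1128 and 1137 at 6 h and 1288 and 1341 at 12 h. Every BPA array from 3 h on was above both 0 h arrays, and the changes were 1.72 ± 0.14, 2.06 ± 0.14 and 2.28 ± 0.14, a 4.85-fold rise at 12 h (limma adjusted p = 3.46e-07). A separate Clk4 probe set, 1427663_a_at, read 195 and 245 at 0 h, 619 and 587 at 3 h, 715 and 662 at 6 h and 713 and 802 at 12 h. It rose by 1.43 ± 0.15, 1.62 ± 0.15 and 1.76 ± 0.15.

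Clk2 had a different time course from Clk4: its signal was 358 and 389 at 0 h, 784 and 766 at 3 h, 638 and 714 at 6 h and 459 and 483 at 12 h. It was highest at 3 h, with a change of 1.04 ± 0.13 there, 0.84 ± 0.13 at 6 h and 0.33 ± 0.13 at 12 h, the last not called (limma adjusted p = 0.0785). Between 3 and 12 h Clk2 fell by 0.71 (limma adjusted p = 0.00371), while Clk4 1422886_a_at rose by a further 0.56 (adjusted p = 0.0164). The difference between the 2 genes was not tested.

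Clk3 read 307 and 294 at 0 h, 434 and 489.9 at 3 h, 572 and 588 at 6 h and 639 and 603 at 12 h. Its changes were 0.60 ± 0.14, 0.93 ± 0.14 and 1.03 ± 0.14, and the 3 h call was lost without either 0 h array or either 3 h array (adjusted p between 0.0544 and 0.138). Clk1, whose own transcript is spliced under control of its kinase activity, read 919 and 1059 at 0 h, 1610.4 and 1755 at 3 h, 1500.3 and 1288 at 6 h and 2063 and 1576 at 12 h. It rose by 0.76 ± 0.15, 0.49 ± 0.15 and 0.87 ± 0.15. The 3 h call was lost without the first 0 h array or the second 3 h array (adjusted p between 0.0711 and 0.0896) and the 6 h call without either 0 h array or the first 6 h array (adjusted p between 0.0666 and 0.221). At 6 h the Clk1 arrays lay between those of 3 h and 0 h, with no overlap with 0 h.

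Fewer calls were made on the SRPK kinases. Srpk1, which loads SR proteins with phosphate in the cytoplasm, read 421 and 402 at 0 h, 491 and 474 at 3 h, 504 and 515 at 6 h and 558 and 627 at 12 h. It rose at 12 h alone, by 0.51 ± 0.13. That call was lost without the second 0 h array or the second 12 h array (adjusted p between 0.076 and 0.0764). Of the 4 probe sets of Srpk2, 1417135_at and 1448603_at were called at 6 h, at 0.41 ± 0.13 and 0.49 ± 0.15, and none was called at 3 or 12 h. The 2 calls were lost without either 0 h array, either 3 h array or the first 6 h array (adjusted p between 0.053 and 0.243) and without either 0 h array or the second 6 h array (adjusted p between 0.0997 and 0.205), and also under quantile normalization (adjusted p = 0.0626 and 0.0732). Probe set 1417134_at read 587 on one 6 h array and 1036 on the other, and its arrays of all 4 times overlapped.

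**Figure D2:**
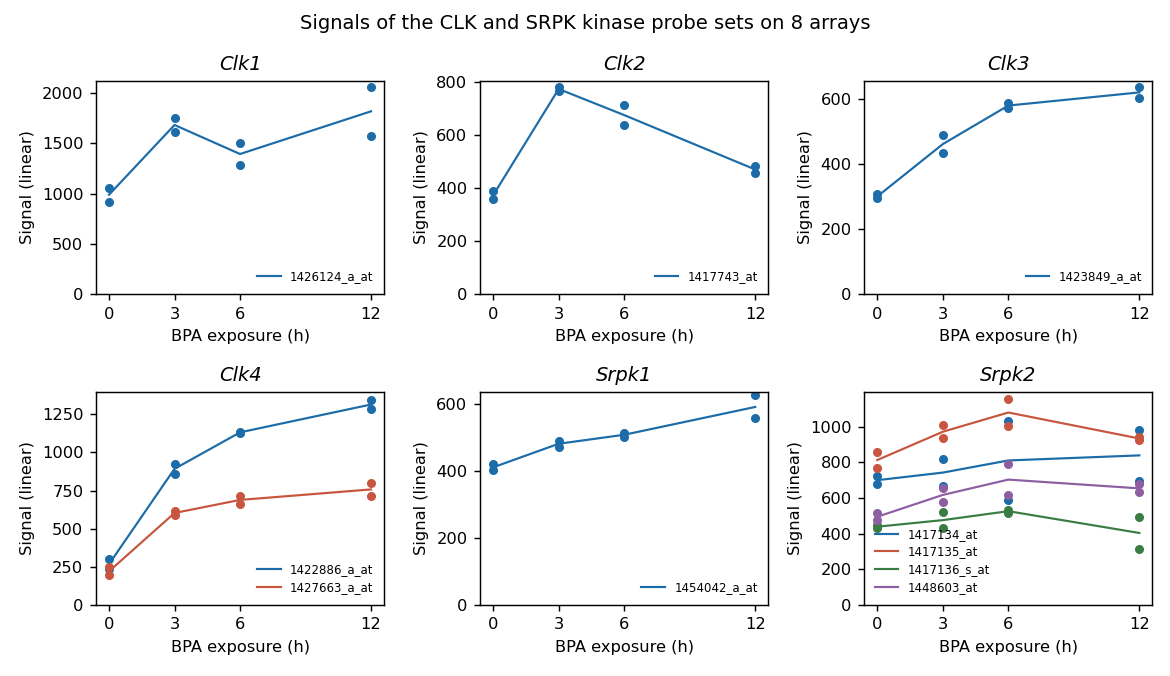
Linear signal of each kinase probe set (colours) on the 8 arrays against hours of BPA exposure; points are single arrays and lines join the means of 2. Clk4 rises from 235 and 298 at 0 h to 1288 and 1341 at 12 h on 1422886_a_at, Clk2 peaks at 3 h, and the 1417134_at arrays of Srpk2 overlap at all 4 times.

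SR proteins split into genes that rose and genes that fell. Of the 31 probe sets, 4 rose and 4 fell at 3 h, 8 and 8 at 6 h, and 12 and 11 at 12 h. The median change was -0.09, -0.29 and -0.28. The shares called at 3, 6 and 12 h were 25.8%, 51.6% and 74.2%, against 8.78%, 21.8% and 33.4% of all probe sets tested. Among bright probe sets the shares were 12.5%, 30% and 43.8%. Of the 23 calls at 12 h, 14 held whichever 1 of the 8 arrays was left out, as did 6 of 16 at 6 h and 2 of 8 at 3 h. The medians also moved with single arrays: without the first 6 h array the 6 h median was -0.07, and without the first 12 h array the 12 h median was -0.08.

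The TRA2 proteins, SR-like activators of exons with GAA repeats, had called rises alone. Tra2b on 1419543_a_at had a signal of 2782 and 2470.3 at 0 h, 4312 and 4080.3 at 3 h, 5391 and 5596 at 6 h and 6785 and 6627 at 12 h. The arrays of each time were all above those of the time before, and the changes were 0.68 ± 0.11, 1.06 ± 0.11 and 1.35 ± 0.11 (limma adjusted p = 3.35e-06 at 12 h). Its other probe set, 1427432_a_at, was not called at 3 h and rose by 0.37 ± 0.11 and 0.66 ± 0.11 at 6 and 12 h. The 6 h call was lost without either 0 h array, either 3 h array or the second 6 h array (adjusted p between 0.0553 and 0.291). Tra2a read 727 and 869 at 0 h, 1079.8 and 1016 at 3 h, 849.5 and 1443 at 6 h and 1326 and 1582 at 12 h, with 1 of its 6 h arrays within the range of 0 h. It was called at 12 h alone, at 0.86 ± 0.21, and not without the first 0 h array or the second 12 h array (adjusted p between 0.0566 and 0.0667).

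Srsf4, one of the larger SR proteins, read 1026 and 874 at 0 h, 1589 and 1433 at 3 h, 1799.5 and 1586 at 6 h and 2106 and 2007 at 12 h. There was no overlap between any BPA time and 0 h. It rose by 0.67 ± 0.13, 0.83 ± 0.13 and 1.11 ± 0.13. The 3 h call was lost without the second 0 h array or the first 3 h array (adjusted p between 0.0727 and 0.0872). Srsf11, which has an arginine and serine domain and binds other splicing factors, rose on both probe sets. Probe set 1452371_at read 1988 and 2132 at 0 h, 3092 and 3064 at 3 h, 3272 and 3306 at 6 h and 3641 and 3969 at 12 h. It rose by 0.58 ± 0.10, 0.67 ± 0.10 and 0.88 ± 0.10. The 3 h call was lost without the first 0 h array or the first 3 h array (adjusted p between 0.0512 and 0.0702). The other, 1427269_at, was called at 6 and 12 h, at 0.54 ± 0.17 and 0.81 ± 0.17. The 6 h call was lost without either 0 h array or the second 6 h array (adjusted p between 0.0986 and 0.235). Srsf2, an SR protein that stays in the nucleus, rose at 12 h on 2 of its 4 probe sets: 1452439_s_at by 0.71 ± 0.14, and 1415807_s_at by 0.51 ± 0.15 but not without the second 0 h array or the first 12 h array (adjusted p between 0.157 and 0.161).

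Srsf1, a founding SR protein that shuttles between nucleus and cytoplasm, had called falls alone. All 6 of its probe sets were below 0 at each time, with changes from -0.66 to -0.33 at 3 h, from -0.81 to -0.48 at 6 h and from -0.88 to -0.46 at 12 h. At 3, 6 and 12 h 2, 4 and 5 of them were called, and 0, 2 and 3 of these calls held whichever array was left out. Probe set 1453722_s_at read 3695 and 3617 at 0 h, 2361 and 2250.0 at 3 h, 1969.8 and 2353 at 6 h and 1976 and 2154 at 12 h. Every BPA array was below both 0 h arrays, the changes were -0.66 ± 0.12, -0.76 ± 0.12 and -0.82 ± 0.12 (limma adjusted p = 0.000236 at 12 h), and the 3 h call was lost without the first 0 h array (adjusted p = 0.0523). Probe set 1430982_at read 1202 and 1290.4 at 0 h, 987 and 987 at 3 h, 659 and 762 at 6 h and 856 and 832 at 12 h, lowest at 6 h, where its change was -0.81 ± 0.12. The calls on 1428099_a_at were lost without the second 0 h array or the first 6 h array (adjusted p between 0.2 and 0.28) at 6 h and without the second 0 h array or the first 12 h array (adjusted p between 0.0527 and 0.084) at 12 h. Those on 1452430_s_at were lost without the first 0 h array or the first 3 h array (adjusted p between 0.124 and 0.134) at 3 h, without the first 0 h array (adjusted p = 0.0672) at 6 h and without the first 0 h array (adjusted p = 0.0601) at 12 h.

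Srsf5, an SR protein induced by insulin in liver, read 4297 and 4591 at 0 h, 5261 and 4309 at 3 h, 3033 and 3263 at 6 h and 3303 and 2372 at 12 h. It was not called at 3 h and fell, with changes of -0.50 ± 0.15 and -0.66 ± 0.15 at 6 and 12 h, though the calls were lost without either 0 h array or either 6 h array (adjusted p between 0.0543 and 0.191) at 6 h and without the second 0 h array or the second 12 h array (adjusted p between 0.0504 and 0.0593) at 12 h. Between 3 and 12 h it fell by 0.76 (limma adjusted p = 0.00572). Srsf9, a small relative of Srsf1, fell at 12 h, with a change of -0.35 ± 0.12. That call was lost without the first 0 h array, either 3 h array or either 12 h array (adjusted p between 0.0583 and 0.29).

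**Figure D3:**
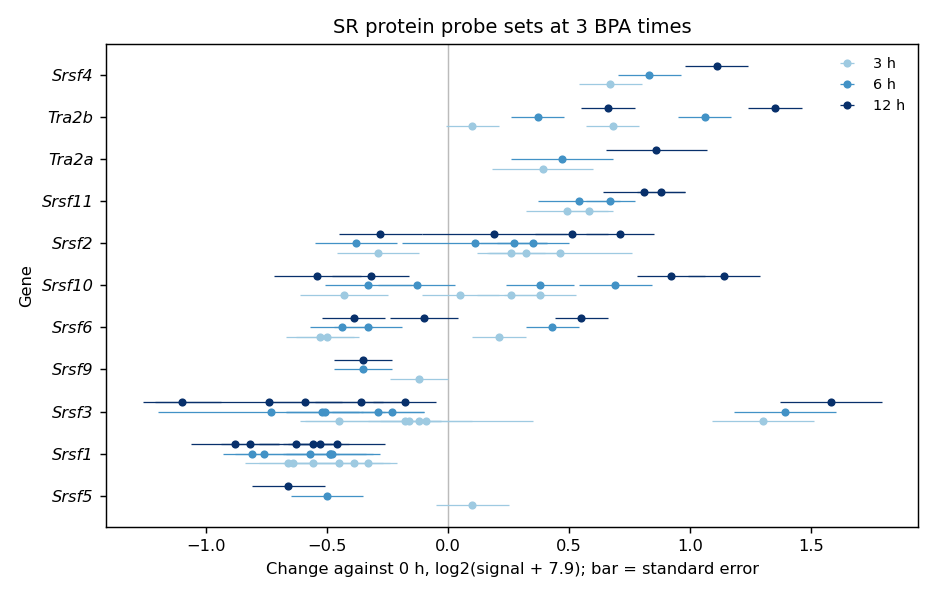
Change against 0 h, in log2(signal + 7.9), of each SR and SR-like probe set by gene, at 3, 6 and 12 h (light to dark); bars are standard errors of the limma model. Points of Srsf4, Srsf11, Tra2a and Tra2b lie to the right of 0 and those of Srsf1 to the left, while Srsf3, Srsf6 and Srsf10 have points on both sides.

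Of 49 tested hnRNP probe sets, 3 rose and 1 fell at 3 h, 6 and 4 at 6 h, and 11 and 5 at 12 h, that is 8.16%, 20.4% and 32.7%, each near or under the background given above. Their median change was -0.01, -0.06 and 0.06. Of the 16 calls at 12 h, 6 held whichever array was left out, 2 of them on Hnrnpdl. Hnrnpdl, a relative of the AU-rich element binding protein AUF1, had the highest changes of the class. Probe set 1449039_a_at read 1189.9 and 936 at 0 h, 2436 and 2168 at 3 h, 2863 and 2607 at 6 h and 3134 and 2797 at 12 h. It rose by 1.12 ± 0.14, 1.37 ± 0.14 and 1.48 ± 0.14 (limma adjusted p = 9.6e-06 at 12 h). Probe set 1424251_a_at read 4836 and 4801 at 0 h, 8986 and 8911 at 3 h, 11088 and 9898 at 6 h and 12931 and 10500.2 at 12 h. It rose by 0.89 ± 0.12, 1.12 ± 0.12 and 1.27 ± 0.12. On both, every BPA array was above both 0 h arrays at each time. A smaller rise was called on 1420093_s_at, by 0.46 ± 0.12, 0.47 ± 0.12 and 0.46 ± 0.12. These calls were lost without either 0 h array or either 3 h array (adjusted p between 0.115 and 0.228) at 3 h, without either 0 h array or the second 6 h array (adjusted p between 0.054 and 0.122) at 6 h and without the second 0 h array or the second 12 h array (adjusted p between 0.071 and 0.0958) at 12 h.

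Hnrnpa1, which competes with Srsf1 for splice sites, rose on 1436549_a_at, with signals of 590.2 and 566 at 0 h, 907 and 685 at 3 h, 815 and 1162 at 6 h and 1198 and 1179.7 at 12 h and changes of 0.74 ± 0.18 at 6 h and 1.03 ± 0.18 at 12 h. The 6 h call was lost without either 0 h array or the second 6 h array (adjusted p between 0.0535 and 0.0709). Its other tested probe set had changes of 0.11 to 0.31 and was not called. Hnrnpc, a core packaging protein of nascent RNA, rose at 12 h on 1460240_a_at by 0.72 ± 0.12. Hnrnph1, which binds runs of G, rose on 1415872_at at 6 and 12 h by 0.49 ± 0.11 and 0.67 ± 0.11. The 6 h call was lost without the first 0 h array (adjusted p = 0.0976). Hnrnpa2b1 was called at 6 h on 1433829_a_at, at 0.63, but not without the first 0 h array, the second 6 h array or either 3 h or 12 h array. It was called at 12 h on 1433829_a_at and 1434047_x_at, at 0.93 ± 0.21 and 0.51 ± 0.14. The calls were lost without the first 0 h array (adjusted p = 0.0667) for the first and without either 0 h array or either 12 h array (adjusted p between 0.0542 and 0.083) for the second. Hnrnpd, the gene of AUF1, was called at 12 h at 0.36 ± 0.11 and not without either 0 h array or the second 12 h array (adjusted p between 0.0775 and 0.163).

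Falls among the hnRNP proteins were smaller or came late. Hnrnph2, a close relative of Hnrnph1, read 1431 and 1538 at 0 h, 992 and 1359.6 at 3 h, 1029 and 1254 at 6 h and 602 and 1017 at 12 h. It was called at 12 h, at -0.92 ± 0.22, but not without the second 0 h array or the first 12 h array (adjusted p between 0.0517 and 0.0708). Hnrnpk, which binds runs of C, fell on 1 of 4 probe sets, 1423684_at, with changes of -0.39 ± 0.11 and -0.47 ± 0.11 at 6 and 12 h. These calls were lost without either 0 h array or the first 6 h array (adjusted p between 0.136 and 0.153) and without either 0 h array or the first 12 h array (adjusted p between 0.0508 and 0.0522). Calls on Hnrnpll at 3 and 6 h and on Hnrnpf at 6 h, between -0.41 and -0.37, did not last to 12 h and were each lost without at least 1 array: for Hnrnpll 1425255_s_at without either 0 h array, either 3 h array or either 12 h array (adjusted p between 0.0575 and 0.214) at 3 h and without either 0 h array or the second 6 h array (adjusted p between 0.134 and 0.149) at 6 h, and for Hnrnpf 1450963_at without either 0 h array or either 6 h array (adjusted p between 0.0518 and 0.212). Hnrnpl, Hnrnpm, Hnrnph3, Hnrnpr, Hnrnpul1 and Hnrnpul2 had no call at any time, with changes between -0.44 and 0.34.

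Of 13 tested Sm and U snRNP probe sets, 1 fell at 3 h, 2 rose and 2 fell at 6 h, and 3 rose and 2 fell at 12 h, with medians of -0.01, 0.01 and 0.02. These shares (7.69%, 30.8% and 38.5%) were near the background of 8.78%, 21.8% and 33.4%, or 12.5%, 30% and 43.8% among bright probe sets. Snrpa1, the A' protein of the U2 snRNP, rose. Probe set 1417352_s_at read 791 and 890.1 at 0 h, 1133 and 923 at 3 h, 1139.5 and 1454 at 6 h and 1673 and 1647 at 12 h. It rose by 0.61 ± 0.15 and 0.98 ± 0.15 at 6 and 12 h. Probe set 1417351_a_at read 886 and 691 at 0 h, 971 and 1061 at 3 h, 1129 and 1146 at 6 h and 1249 and 1443 at 12 h. It rose by 0.53 ± 0.14 and 0.77 ± 0.14. Both 12 h calls held whichever array was left out. The 6 h calls were lost without the first 0 h array or the second 6 h array (adjusted p between 0.07 and 0.102) and without the second 0 h array or either 6 h array (adjusted p between 0.0502 and 0.192). Snrpb2, the B'' protein of the same particle and a partner of Snrpa1, was called on 1452422_a_at at 12 h, at 0.37 ± 0.12, and not without the second 0 h array or either 12 h array (adjusted p between 0.0608 and 0.232).

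Snrpd3, an Sm ring protein, fell on 2 of 3 probe sets. Probe set 1449629_s_at read 305 and 347 at 0 h, 199 and 226 at 3 h, 143 and 168 at 6 h and 148 and 146 at 12 h. Every BPA array was below 0 h, and it fell, with changes of -1.03 ± 0.19 and -1.10 ± 0.19 at 6 and 12 h. Probe set 1422884_at read 3460.0 and 3205 at 0 h, 2331 and 2029 at 3 h, 1869 and 2366 at 6 h and 2559 and 2196 at 12 h. It was called at all 3 times, at -0.61 ± 0.14, -0.66 ± 0.14 and -0.49 ± 0.14. These calls were lost without either 0 h array or either 3 h array (adjusted p between 0.0508 and 0.144) at 3 h, without the first 0 h array (adjusted p = 0.0556) at 6 h and without either 0 h array or the second 12 h array (adjusted p between 0.0542 and 0.121) at 12 h. The third, 1422885_at, read 137 and 130.1 at 0 h, 95.8 and 103 at 3 h, 11.8 and 116 at 6 h and 89.9 and 13.5 at 12 h; 1 array each at 6 and 12 h was far below its pair, and no change was called. The other Sm ring members tested, Snrpb, Snrpe and Snrpg, and the U1 protein Snrpc had no call, with changes between -0.27 and 0.13.

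In the SF3 complex rises were called on Sf3a1, Sf3a2, Sf3a3, Sf3b1 and Sf3b3 and falls on Sf3b5, Sf3b6 and a separate probe set of Sf3a1. Of 20 tested probe sets none rose and 2 fell at 3 h, 2 rose and 4 fell at 6 h, and 5 rose and 3 fell at 12 h. These shares (10%, 30% and 40%) were near those of bright probe sets (12.5%, 30% and 43.8%). The median change was -0.06, 0.06 and 0.23. Sf3a1 rose on 1449333_at, which read 696 and 767 at 0 h, 850.4 and 995 at 3 h, 1099 and 985 at 6 h and 1298 and 1449 at 12 h, by 0.51 ± 0.13 and 0.90 ± 0.13 at 6 and 12 h. The 6 h call was lost without either 0 h array or the first 6 h array (adjusted p between 0.0538 and 0.132). Sf3a3, another SF3A subunit, rose at 12 h on 1423811_at by 0.53 ± 0.12. Sf3b3, a scaffold of SF3B, read 1730.5 and 1498 at 0 h, 1721 and 2071 at 3 h, 2451 and 2521 at 6 h and 2502 and 2547 at 12 h. It rose by 0.62 ± 0.12 and 0.65 ± 0.12. The 6 h call was lost without the second 0 h array (adjusted p = 0.0542). Sf3a2 and Sf3b1, the subunit that contacts the branch region, had 1 called probe set each at 12 h, at 0.35 ± 0.11 and 0.36 ± 0.11. These calls were lost without either 0 h array or the second 12 h array (adjusted p between 0.09 and 0.158) and without either 0 h array or the second 12 h array (adjusted p between 0.0717 and 0.158).

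Sf3b6, the p14 subunit that touches the branch point adenosine, went the other way. Probe set 1417055_at read 1627 and 1592 at 0 h, 823 and 938 at 3 h, 1206 and 1035 at 6 h and 1065 and 1303 at 12 h. It was lowest at 3 h, at -0.87 ± 0.14, and stood at -0.52 ± 0.14 and -0.45 ± 0.14 later, where the calls were lost without either 0 h array or the second 6 h array (adjusted p between 0.0845 and 0.104) and without either 0 h array or the first 12 h array (adjusted p between 0.0964 and 0.193). Probe set 1417054_a_at read 1746 and 1543 at 0 h, 1071 and 1074 at 3 h, 976 and 833 at 6 h and 1030.5 and 987 at 12 h. It fell, with changes of -0.61 ± 0.12, -0.86 ± 0.12 and -0.70 ± 0.12. Its 3 h call was lost without the first 0 h array or either 3 h array (adjusted p between 0.0663 and 0.118). Every BPA array of both was below both 0 h arrays. A further Sf3b6 probe set, 1436681_x_at, and Sf3b5 on 1451185_at were called at 6 h alone, at -0.65 ± 0.21 and -0.46 ± 0.14. Those calls were lost without either 0 h array, either 3 h array, the first 6 h array or either 12 h array (adjusted p between 0.0518 and 0.321) and without either 0 h array or the second 6 h array (adjusted p between 0.102 and 0.172). Sf3b2 and Sf3b4 had no call at any time.

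Of 10 LUC7-like probe sets, 3 rose at 3 h and at 6 h, and 4 rose and 1 fell at 12 h. The shares called were 30%, 30% and 50%, beside 12.5%, 30% and 43.8% of bright probe sets, and the median change was 0.03, 0.20 and -0.02. All 3 Luc7l probe sets were called at all 3 times. Probe set 1428255_at read 587 and 574 at 0 h, 1084 and 941 at 3 h, 1293 and 1208 at 6 h and 1292 and 1458 at 12 h. It rose by 0.79 ± 0.13, 1.10 ± 0.13 and 1.23 ± 0.13 (limma adjusted p = 2.04e-05 at 12 h). Probe set 1431181_a_at read 264 and 265 at 0 h, 446 and 517 at 3 h, 687 and 505 at 6 h and 1018 and 657 at 12 h. It rose by 0.84 ± 0.21, 1.13 ± 0.21 and 1.60 ± 0.21, and 1452708_a_at rose by 0.77 ± 0.17, 0.84 ± 0.17 and 1.31 ± 0.17. The 3 h calls of the last 2 were lost without either 0 h array or either 3 h array (adjusted p between 0.0803 and 0.162) and without either 0 h array or either 3 h array (adjusted p between 0.0679 and 0.123). Luc7l3 had no call, with changes between -0.28 and -0.05.

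In some member genes the probe sets did not move together. Of the 35 member genes with 2 or more tested probe sets, 3 (Hnrnpdl, Srsf3 and Srsf6) had probe sets called in both directions at 6 h, 8.57% where 0.616% of all such genes did. At 12 h 8 did (Hnrnpab, Hnrnpdl, Hnrnpu, Luc7l2, Sf3a1, Srsf10, Srsf3 and Srsf6), 22.9% against 2.44%. Only Srsf3 kept both a called rise and a called fall at 12 h whichever array was left out. None of the 3 genes did so at 6 h. Member genes have many probe sets, and among genes with 3 or more tested probe sets the counts were 7 of 20 members (35%) and 65 of 1326 genes (4.9%). The difference between probe sets was then fitted directly, as the change of each further probe set minus that of the gene's brightest one on the same array. Of 79 such member pairs 2 were called at 3 h, 3 at 6 h and 17 at 12 h, where 0.285%, 1.6% and 7.53% of all 5615 pairs were. Of the 17 at 12 h, 5 held whichever array was left out, as did 2 of 3 at 6 h and none of the 2 at 3 h. Without either 0 h array or either 12 h array fewer member pairs were called at 12 h, and fewer of all pairs as well. Beside the pairs described below, called 12 h differences were 1.05 ± 0.20 and 0.63 ± 0.16 in Hnrnpa2b1, -1.22 ± 0.30 in Hnrnpc, -1.02 ± 0.23 for 1434390_at in Hnrnpu, 0.99 ± 0.27 in Srsf2 and -0.69 ± 0.16 in Tra2b.

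Srsf3, the smallest SR protein, showed the widest split upward. Its brightest probe set, 1416150_a_at, read 3423 and 3528 at 0 h, 2898 and 3356 at 3 h, 2720.4 and 3217 at 6 h and 2794 and 3378 at 12 h. It had no called change. Probe set 1438215_at read 140.0 and 182 at 0 h, 349 and 467 at 3 h, 385 and 480.0 at 6 h and 423 and 576 at 12 h. Every BPA array was above both 0 h arrays, and it rose by 1.30 ± 0.21, 1.39 ± 0.21 and 1.58 ± 0.21. Probe set 1416151_at read 520.1 and 539.5 at 0 h, 382 and 388 at 3 h, 327 and 415 at 6 h and 222 and 264 at 12 h. It was called down at 6 h, at -0.51, and at 12 h, at -1.10 ± 0.16. The 6 h call was lost without either 0 h array, either 3 h array or the first 6 h array. The difference of 1438215_at from 1416150_a_at was 1.45 ± 0.19, 1.62 ± 0.19 and 1.76 ± 0.19 (limma adjusted p = 0.000609 at 12 h), and that of 1416151_at was -0.93 ± 0.17 at 12 h. The 6 and 12 h differences of 1438215_at held whichever array was left out. That of 3 h was lost without either 0 h array or either 3 h array (adjusted p between 0.0812 and 0.157), and that of 1416151_at without either 0 h array (adjusted p between 0.0733 and 0.0767). Probe set 1454993_a_at was called down at 6 h, at -0.52, but not without either 0 h array or the first 6 h array. It also fell at 12 h, with a change of -0.59 ± 0.15. That call was lost without the second 0 h array or the first 12 h array (adjusted p between 0.0778 and 0.0891).

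Hnrnpdl was split the other way. While 1424251_a_at and 1449039_a_at rose, 1424252_at read 1085 and 912 at 0 h, 730.5 and 802 at 3 h, 595 and 764 at 6 h and 706 and 640.2 at 12 h. It fell, with changes of -0.56 ± 0.15 and -0.56 ± 0.15 at 6 and 12 h. The calls of the fall itself were lost without the first 0 h array or the first 6 h array (adjusted p between 0.14 and 0.183) and without the first 0 h array or the second 12 h array (adjusted p between 0.0804 and 0.131). Its difference from 1424251_a_at was -1.27 ± 0.19, -1.68 ± 0.19 and -1.83 ± 0.19 (limma adjusted p = 0.000601 at 12 h), and the 6 and 12 h differences held whichever array was left out. That of 3 h was lost without either 0 h array or either 3 h array (adjusted p between 0.141 and 0.288). Of the other pairs of this gene, 1420093_s_at and 1428224_at differed from 1424251_a_at at 12 h by -0.82 ± 0.18 and -1.11 ± 0.27, lost without either 0 h array or the first 12 h array (adjusted p between 0.102 and 0.164) and without either 0 h array or the first 12 h array (adjusted p between 0.103 and 0.211).

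Srsf10, an SR-like protein that represses splicing when dephosphorylated, had 2 probe sets up and 1 down at 12 h. Probe set 1423982_at read 515 and 619 at 0 h, 713 and 768 at 3 h, 860.2 and 972 at 6 h and 1116 and 1401 at 12 h. It rose by 0.69 at 6 h, a call lost without the first 0 h array, and by 1.14 ± 0.15 at 12 h. Probe set 1418527_a_at read 960.2 and 894 at 0 h, 1081 and 1136 at 3 h, 1052 and 1393 at 6 h and 1701 and 1825 at 12 h. It rose by 0.92 ± 0.14 at 12 h. Probe set 1449121_at read 326 and 326 at 0 h, 249 and 231 at 3 h, 228 and 291 at 6 h and 208 and 237 at 12 h. Its 12 h change of -0.54 ± 0.18 was called, but not without either 0 h array or either 12 h array (adjusted p between 0.057 and 0.169). Against 1418527_a_at, the difference at 12 h was -1.46 ± 0.20 for 1449121_at and -1.24 ± 0.18 for 1418526_at (limma adjusted p = 0.00185 and 0.00296), and both held whichever array was left out.

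Srsf6, a relative of Srsf4, had a called rise on 1448454_at, with signals of 1917 and 2134 at 0 h, 2296 and 2404 at 3 h, 2869.7 and 2591 at 6 h and 2984 and 2958 at 12 h and a change of 0.55 ± 0.11 at 12 h, and falls on 1416721_s_at, which read 3208 and 3191 at 0 h, 2132 and 2405 at 3 h, 2526 and 2206 at 6 h and 2205 and 2706 at 12 h. It changed by -0.50 ± 0.13, -0.44 ± 0.13 and -0.39 ± 0.13. The rise on 1448454_at was also called at 6 h, at 0.43, but did not hold whichever array was left out. The falls were lost without either 0 h array or either 3 h array (adjusted p between 0.0787 and 0.22) at 3 h, without either 0 h array or the second 6 h array (adjusted p between 0.125 and 0.138) at 6 h and without either 0 h array or the first 12 h array (adjusted p between 0.133 and 0.263) at 12 h. The difference between them was 0.87 ± 0.16 at 6 h and 0.94 ± 0.16 at 12 h (limma adjusted p = 0.0272 and 0.00666). The 6 h difference was lost without either 0 h array or either 6 h array (adjusted p between 0.0522 and 0.217) and the 12 h one without the first 0 h array or the first 12 h array (adjusted p between 0.0613 and 0.0718). A separate fall at 3 h on 1416720_at, of -0.53 ± 0.14, was lost without either 0 h array or either 3 h array (adjusted p between 0.077 and 0.243).

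Sf3a1 and Luc7l2 split at 12 h alone. Sf3a1 on 1419087_s_at read 279.7 and 274 at 0 h, 307 and 325 at 3 h, 235 and 220.4 at 6 h and 172 and 165 at 12 h. It fell, with a change of -0.69 ± 0.17 at 12 h. That call was lost without the first 0 h array (adjusted p = 0.0525). Its difference from 1449333_at was -1.59 ± 0.21 (limma adjusted p = 0.00177) and held whichever array was left out. Luc7l2, a relative of Luc7l, rose on 1427087_at by 0.83 ± 0.15, with signals of 401 and 429.8 at 0 h, 464 and 443 at 3 h, 464 and 593 at 6 h and 719.6 and 775 at 12 h. It was called down on 1436766_at at -0.50 ± 0.17. That call was lost without either 0 h array or either 12 h array (adjusted p between 0.0685 and 0.21). The difference of 1427087_at from the brightest Luc7l2 probe set was 1.04 ± 0.20 at 12 h and was lost without either 0 h array or either 12 h array (adjusted p between 0.0512 and 0.112). Hnrnpu, which binds nuclear scaffold DNA and RNA, had 0.34 ± 0.10 on 1423051_at and -0.99 ± 0.27 on 1434391_at, a difference of -1.34 ± 0.21 that was lost without the second 0 h array (adjusted p = 0.0586). The 2 changes were lost without either 0 h array or either 12 h array (adjusted p between 0.0631 and 0.171) and without either 0 h array or the second 12 h array (adjusted p between 0.0564 and 0.1). In Hnrnpab, 1426114_at was called at 0.39 ± 0.12. That call was lost without the first 0 h array or the first 12 h array (adjusted p between 0.132 and 0.223). The fall of 1448144_at, at -1.15 ± 0.26, held whichever array was left out, and its difference from the brightest Hnrnpab probe set was -1.16 ± 0.31, just short of a call (limma adjusted p = 0.0502). That difference was called under quantile normalization, with the larger offset, with the stricter filter, with the replicate block, and without the first 3 h array or either 6 h array.

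**Figure D4:**
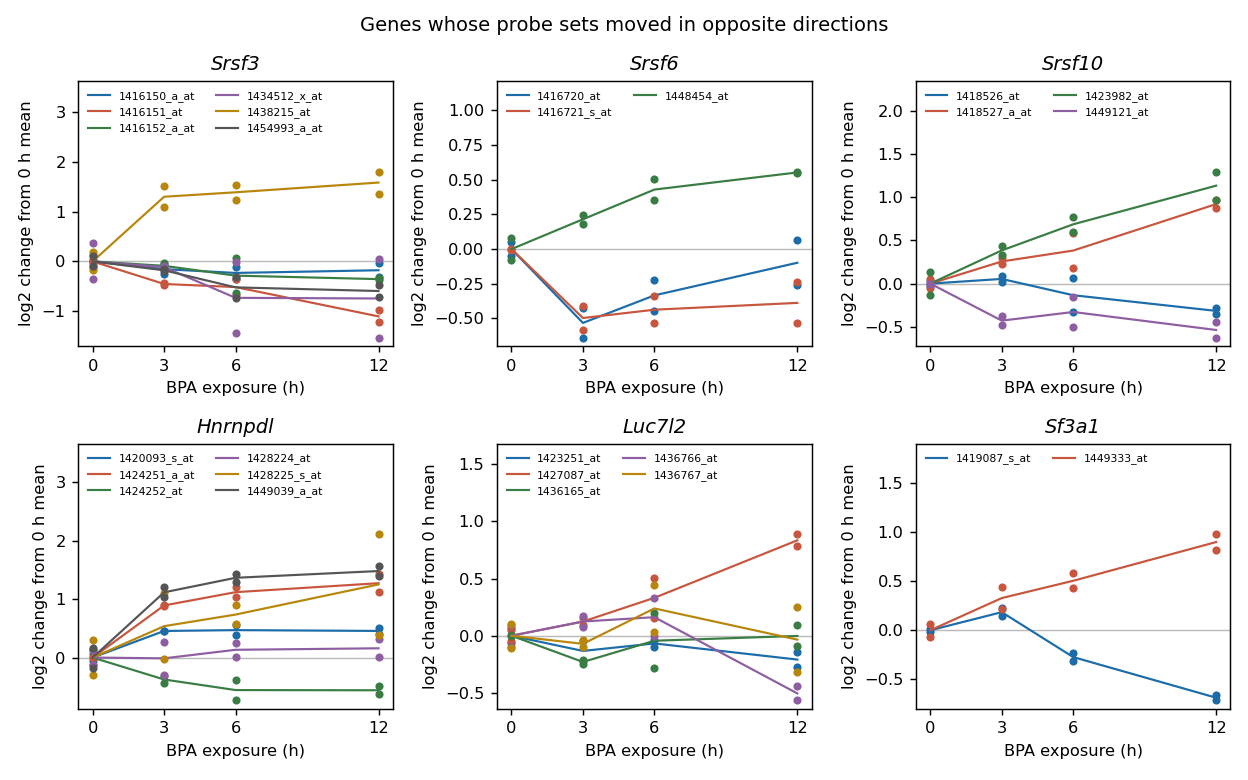
Change from the 0 h mean, in log2(signal + 7.9), of every tested probe set (colours) of 6 genes against hours of BPA exposure; points are single arrays and lines join means of 2. In Srsf3, Srsf6, Srsf10, Hnrnpdl, Luc7l2 and Sf3a1 lines go up and down within a gene, for example 0.90 and -0.69 at 12 h in Sf3a1.

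The probe sequences are not used here, so which transcripts or which part of a transcript each probe set reads is not known, and signals of the same gene were not compared as levels. Of the 138 members, 34 probe sets have an ID ending in _s_at or _x_at, among them 1416721_s_at of Srsf6 and 1419087_s_at of Sf3a1. These endings mark probes that may also match transcripts of other genes. Probe sets with an ID ending in _a_at, among them the brightest of Srsf3, Hnrnpdl and Srsf10, were not counted here. Without the _s_at and _x_at probe sets, and with those ending in _a_at kept, the median change of the SR proteins was 0.10, -0.13 and -0.10 at 3, 6 and 12 h. With 1 probe set per gene it was 0.10 at 3 h. The sign of the 3 h median of the SR proteins therefore depended on which probe sets were taken.

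Steps between neighbouring times were not resolved. Between 3 and 6 h 0 of the 133 members were called with limma (16 had an unadjusted p under 0.05), where 0.972% of all probe sets were called. Between 6 and 12 h 0 were called (25 with an unadjusted p under 0.05), where 2.97% of all were. Without the second 6 h array that count was 6. Between 3 and 12 h 28 members were called (21.1%, background 17.5%), 22 of them up and 6 down. The rises included both Tra2b probe sets (0.68 for 1419543_a_at and 0.56 for 1427432_a_at), all 3 of Luc7l (0.44 to 0.76), Srsf10 1423982_at (0.75) and Snrpa1 1417352_s_at (0.69), and the falls Sf3a1 1419087_s_at (-0.87), Srsf5 (-0.76), Clk2 (-0.71) and Srsf3 1416151_at (-0.65). Without either 3 h array or without the first 12 h array, fewer members and fewer of all probe sets were called between 3 and 12 h. The share of members called was then near or below that of all. Over the time course as a whole 56 members were called by the moderated F test (42.1%), against 29.3% of all probe sets and 39.3% of those above the median signal. Without the first or the second 0 h array 35 or 36 were.

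Other genes of the pathway were taken from lists of 141 genes that hold no member, of which 113 were on the array with 265 probe sets, 245 of them tested. In all 21 rose and 8 fell at 3 h, 45 and 16 at 6 h and 59 and 33 at 12 h, with medians of 0.06, 0.14 and 0.17. The shares called were 11.8%, 24.9% and 37.6%, near the 8.78%, 21.8% and 33.4% of all probe sets and below those of bright ones. The tri-snRNP is the U4/U6.U5 particle that joins the pre-mRNA after U1 and U2. Its list also names proteins of the minor spliceosome, Snrnp25, Snrnp35 and Snrnp48. In that list 6 of 28 tested probe sets rose at 3 h, 10 at 6 h and 13 at 12 h and none fell. These were 21.4%, 35.7% and 46.4%, where 5.91%, 13% and 17% of all probe sets rose. Among bright probe sets 12.5%, 30% and 43.8% were called in either direction, so that at 12 h the share called was near that background. Snrnp48, a protein of the minor spliceosome counted in that list, read 116 and 81.4 at 0 h, 224 and 337 at 3 h, 299 and 351 at 6 h and 548 and 617 at 12 h. It rose by 1.43 ± 0.23, 1.66 ± 0.23 and 2.49 ± 0.23. Among proteins that recognise the branch point and the U1 and U2 sites, 5 of 21 probe sets rose at 12 h and none fell. This 23.8% was below the 33.4% of all probe sets called, of which 17% rose and 16.4% fell. Puf60, which helps U2AF at the 3' splice site, rose by 0.71 ± 0.11. In the Prp19 complex and the catalytic steps 13 of 36 rose and 3 fell at 12 h (36.1% and 8.33%), with Xab2 at 1.01 ± 0.13 and Bud31 at -0.99 ± 0.11. The share called, 44.4%, was near that of bright probe sets.

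Among other splicing regulators 15 of 102 probe sets rose and 20 fell at 12 h (14.7% and 19.6%), near the 17% and 16.4% of all probe sets. Srek1, which binds SR proteins, read 131 and 96.9 at 0 h, 338 and 288 at 3 h, 391 and 390.0 at 6 h and 429 and 414 at 12 h. It rose by 1.41 ± 0.18, 1.72 ± 0.18 and 1.83 ± 0.18. Esrp2, an epithelial splicing regulator, read 115 and 131 at 0 h, 139 and 152 at 3 h, 24.4 and 44.7 at 6 h and 10.2 and 24.6 at 12 h. It fell, with a change of -2.43 ± 0.43 at 12 h. In the exon junction complex and export list 8 of 25 rose and 5 fell at 12 h (32% and 20%), with Thoc1 at 0.98 ± 0.13 and Thoc2 at -0.83 ± 0.16, both of the THO export complex. In snRNP assembly 3 of 13 rose and 3 fell at 12 h (23.1% each), with the SMN partner Gemin2 at 1.19 ± 0.16 and Wdr77 at -0.55 ± 0.12. Of 7 LSm probe sets 1 rose and 2 fell at 3 h (14.3% and 28.6%, background 5.91% and 2.87%), with Lsm10 at 0.44 ± 0.12 and Lsm2 at -0.62 ± 0.16. These calls were lost without either 0 h or either 3 h array (adjusted p from 0.0673 to 0.226). Among the other kinases and phosphatase regulators, 1 of 13 rose and 1 fell at 12 h, and both were Prpf4b, a kinase of the tri-snRNP: 1455696_a_at at 1.29 ± 0.27 and 1425498_at at -0.92 ± 0.22. The 2 arrays of 12 h read 453 and 888 on the first of these, both above 0 h, and the fall on the second was lost without the second 0 h array or the first 12 h array (adjusted p between 0.061 and 0.107).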

How the data were processed

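The deposited values are 1 signal per probe set and array, an intensity on a linear scale made by the authors; the software behind them is not given in the sources used here. The groups come from the sample titles. Of 22690 probe sets 64 controls were left out. Symbols came from the platform annotation, updated through Entrez IDs to RefSeq GRCm38.p6 for 20351 probe sets; no member changed by this. The members, lists, alternatives and naming rule were chosen with earlier results of these data known, and members outside the naming rule were named after their values were seen.

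An offset of 7.9, the 10th percentile of the signals, was added before log2. The dimmest 30% of probe sets by mean log2 signal were filtered out, which left 15838 to test. The limma package (3.58.1, R 4.3.3) fitted 1 mean to each time, with all 8 arrays in the model and an intensity trend in eBayes; 4 residual and 7.82 prior degrees of freedom resulted. Tests were two-sided with Benjamini-Hochberg adjustment. Pairs of probe sets of a gene were fitted the same way on within-array differences, with the trend on the pair's mean signal. The naming rule took, per class and time, the 4 called probe sets of largest change among bright ones whose treated arrays lay beyond 0 h, all kinase probe sets, the 6 called pairs of largest difference per time, and the called probe set of largest rise and of largest fall per pathway list, at the time with most calls. The fit was tested on 10 runs of data simulated for 12 h against 0 h, with 200 of 15838 probe sets changed in each. It found 58.1% of probe sets changed 2-fold and 86.1% of those changed 4-fold, and 4.37% of its calls were false. Many more probe sets were called in the real 12 h comparison (33.4%), so these rates need not hold there. Alternatives were another normalization, offset, filter, variance model, set of samples, choice of probe sets or symbols, the replicate number as a block, and leaving out each array.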

Additional observations from a re-analysis of the deposited data

How the results depend on the processing

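Of 128 calls on the named probe sets, 76 held in every alternative that could be computed and 0 reversed; 234 of 2478 recomputed calls were no longer past the threshold, and 10 of 58 uncalled named results were called in at least 1 alternative. Without the intensity trend 12, 21 and 8 members were called at 3 h, at 6 h and between 3 and 12 h, 30 by the F test, and 0 and 10 pairs at 3 and 12 h. With 1 probe set per gene 13, 22 and 27 were called at 3, 6 and 12 h, 17 between 3 and 12 h, 2 between 6 and 12 h and 26 by the F test, and the 3 h SR median was 0.10. Without s_at and x_at probe sets the SR medians were 0.10, -0.13 and -0.10, the 3 h Sm and U snRNP median was -0.17, and 1 member was called between 6 and 12 h. After scaling to 1 common median, the hnRNP medians were -0.14 and -0.18 and the Sm and U snRNP medians -0.15 and -0.11 at 3 and 6 h, and 1 member was called between 6 and 12 h. Quantile normalization called 5 pairs at 6 h, and the filter at the 50th percentile 2 members between 6 and 12 h. Fewer members were tested with 1 probe set per gene and without s_at and x_at probe sets; for the other shifts the cause was not tested.

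Leaving out 1 array at a time, the counts of members called went from 10 to 25 at 3 h, 20 to 45 at 6 h, 8 to 39 between 3 and 12 h, 0 to 6 between 6 and 12 h and 35 to 66 by the F test. Pairs called went from 0 to 2 at 3 h and 7 to 22 at 12 h. The SR medians went from -0.09 to 0.08 at 3 h, -0.35 to -0.07 at 6 h and -0.31 to -0.08 at 12 h. The hnRNP medians went from -0.14 to 0.06 at 6 h and 0.03 to 0.15 at 12 h. The Sm and U snRNP medians went from -0.11 to 0.04 at 3 h and 0.02 to 0.13 at 12 h. The number of members called at 12 h against 0 h also moved. It was lower without either 0 h array or either 12 h array, and higher without either 6 h array. The number of all probe sets called moved the same way in those fits. At 3 and 6 h the fewest members were called without the first 0 h array, where fewer of all probe sets were called as well.

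Deviations of same-numbered arrays correlated weakly, between 0.00749 and 0.119 over 6 pairs of times, and the main model held no term for the replicate number. Whether same-numbered arrays share a culture or a batch was not tested. With the replicate block 27, 55 and 72 members were called at 3, 6 and 12 h, against 23, 46 and 62 without it, 7 between 6 and 12 h, and 5 pairs at 6 h. Of all probe sets 1835, 3977 and 5803 were called with the block at 3, 6 and 12 h, and 1390, 3457 and 5293 without it. Dim signals and 2 arrays per time limit what could be seen: 5 members fell below the filter, and a change missed here is not shown to be absent.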
